A study of Mus musculus with 6 samples.

Results

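Pfkl and Pfkm, the genes of the liver-type and muscle-type subunits of phosphofructokinase-1, were chosen by gene symbol for their opposite differences between the groups in the deposited normalised reads and FPKM. They are 2 of the 7340 genes in the deposited table, and the third subunit gene, Pfkp (platelet type), was outside that table and was not analysed here. RNA sequencing covered 6 kidney samples of wild-type mice. In 3 of them blood flow had been stopped and restored (ischaemia-reperfusion injury, IRI) with MK8617 given, and in the other 3 the injury stood alone. MK8617 (MK-8617) blocks prolyl hydroxylases, the enzymes through which oxygen keeps hypoxia-inducible factor (HIF) low. Every difference below is therefore between injured kidneys, and no uninjured kidney was analysed here. The treatment entries of MK8617 replicates 2 and 3 read MK8618 and MK8619, and the titles, which name MK8617, were followed. The labels give no dose, age, sex or time, while the columns of the table carry a 1d tag. The series' design text speaks of tumors, while every sample label names kidney. Nothing states that a replicate is an animal of its own, so errors and p-values cover the spread among these libraries, which could be technical.

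Phosphofructokinase-1 transfers a phosphate from ATP to fructose-6-phosphate and so makes fructose-1,6-bisphosphate, the committed step of glycolysis. The enzyme is a tetramer, and subunits of different genes can assemble together. Citrate and ATP inhibit it, and fructose-2,6-bisphosphate, made and removed by the enzymes of the Pfkfb genes, activates it. In the kidney the proximal tubule is better known for making glucose and oxidising fatty acids, and the later nephron segments for using glucose. Several glycolytic genes, Pfkl among them, have been described as HIF targets.

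Pfkl (ENSMUSG00000020277) lies on the minus strand of GRCm38 chromosome 10 from 77986947 to 78010083, and Pfkm (ENSMUSG00000033065) on the plus strand of chromosome 15 from 98092589 to 98132451. The 5′ end of Pfkm overlaps Senp1 on the opposite strand and Gm26513, a non-coding gene antisense to Senp1, on its own strand. Of the 3340 exon bases of Pfkm 359 are shared with exons of other genes, against 0 of the 6675 exon bases of Pfkl. The labels do not call the library kit strand-specific, so reads in those 359 bases could belong to either gene. Reads were counted per gene, so the alternative starts of Pfkm cannot be told apart. RefSeq (GRCm38.p6) gives 1 promoter window for Pfkl and 4 for Pfkm. The stretches before the Pfkl start and before the 2 Pfkm starts nearest to those of the GENCODE M21 principal transcripts, trimmed of exon bases, are shown because the inhibitor acts through HIF, whose core binding letters are ACGTG or GCGTG. They run from the base farthest from the start, in the sense of the gene, at chr10:78009808-78010004 (minus strand), chr15:98092339-98092588 (plus strand) and chr15:98108221-98108465 (plus strand). Capitals mark ACGTG or GCGTG read on either strand.
Pfkl: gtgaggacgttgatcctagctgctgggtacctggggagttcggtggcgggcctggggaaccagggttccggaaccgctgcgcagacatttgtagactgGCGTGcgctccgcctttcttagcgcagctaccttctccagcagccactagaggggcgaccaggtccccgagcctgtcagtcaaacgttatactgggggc
Pfkm, upstream start: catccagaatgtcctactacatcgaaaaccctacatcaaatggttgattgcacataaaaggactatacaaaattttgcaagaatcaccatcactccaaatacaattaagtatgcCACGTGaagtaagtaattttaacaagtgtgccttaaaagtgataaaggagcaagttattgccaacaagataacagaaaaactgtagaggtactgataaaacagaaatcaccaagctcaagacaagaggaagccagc
Pfkm, downstream start: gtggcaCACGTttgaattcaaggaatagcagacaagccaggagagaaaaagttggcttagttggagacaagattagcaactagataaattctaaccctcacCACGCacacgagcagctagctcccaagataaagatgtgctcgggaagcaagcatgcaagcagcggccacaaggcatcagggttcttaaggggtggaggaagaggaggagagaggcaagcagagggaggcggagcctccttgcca
Within these stretches Pfkl held GCGTG once, at position -99 from its start. Before the upstream Pfkm start, CACGTG carried ACGTG on both strands, at positions -136 and -135. The downstream Pfkm start had ACGTG at position -244 and GCGTG at position -149, both on the opposite strand. In full windows of 300 bases, at least 1 of the 2 motifs was present in 43.8% of 32851 promoter windows. These letters were thus upstream of the named starts. For Pfkl and for the downstream Pfkm start they lay inside the annotated gene, where other transcripts start farther upstream. A match is a description of sequence, not of binding.

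Pfkl had 3472.1, 3243.4 and 3636.6 normalised reads in the MK8617 replicates, against 844.2, 927.2 and 947.1 in IRI replicates 1, 2 and 3 (read counts divided by the authors' size factor of each library). Every MK8617 library lay above every IRI library, and the nearest libraries of the groups were 3.42-fold apart. The means were 3451 ± 197 with MK8617 and 906 ± 54.6 with IRI alone (SD, n = 3 each), a log2 fold change of 1.93 ± 0.1 (SE) on the log2(value + 1) scale. Behind these values stood 3389, 3039 and 3420 reads with MK8617, against 892, 1018 and 988 reads with IRI alone.

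Pfkm had 295.1, 315.9 and 347.7 normalised reads in the MK8617 replicates, against 605.7, 518.3 and 521.5 in IRI replicates 1, 2 and 3. Here every MK8617 library lay below every IRI library, and the nearest libraries were 1.49-fold apart. The means were 320 ± 26.5 with MK8617 and 548 ± 49.6 with IRI alone, a log2 fold change of -0.78 ± 0.13. The MK8617 mean of Pfkm was 58.3% of the IRI mean. Pfkm was the thinner measurement, with 288, 296 and 327 reads with MK8617 and 640, 569 and 544 reads with IRI alone. Its coefficient of variation was 8.3% with MK8617 and 9.04% with IRI alone, where read counting alone gives 5.74% with MK8617 and 4.14% with IRI alone. For Pfkl the spread was 5.72% with MK8617 and 6.02% with IRI alone, where counting alone gives 1.75% with MK8617 and 3.22% with IRI alone.

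This contrast chose both genes, so it is described without a test, and the authors' deposited table gives log2 fold changes of 1.93 for Pfkl and -0.78 for Pfkm. Both passed a filter on low reads. Groups did not overlap in 92.5% of the 6961 genes that passed it, and nothing is read from the separation of Pfkl and Pfkm. Among those genes 2.36% had a higher log2 fold change than Pfkl and 26.1% a lower one than Pfkm. In whole kidney RNA, fewer cells of a type and less RNA per cell cannot be told apart.

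**Figure D1:**
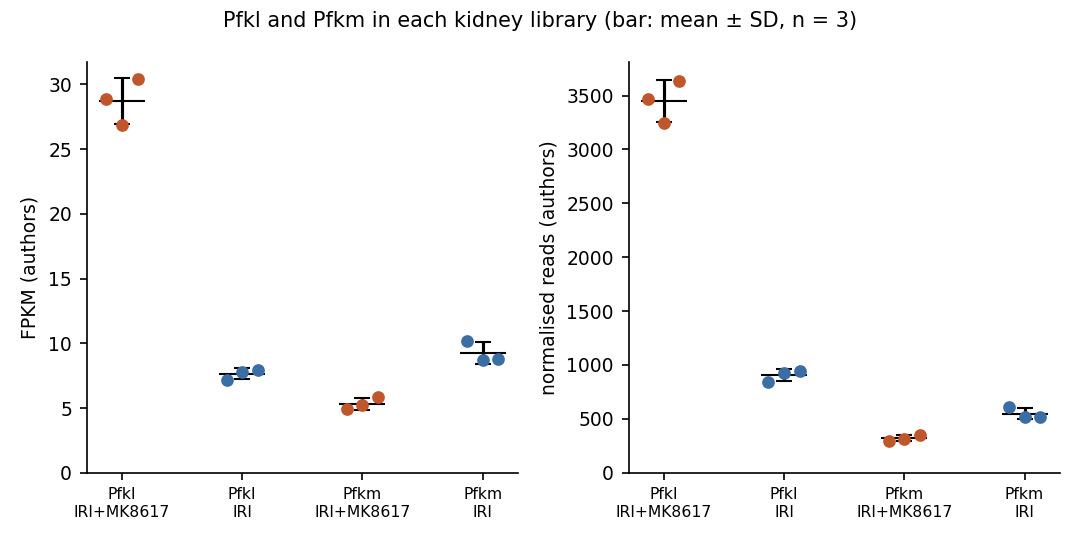
Pfkl and Pfkm in each library, as deposited FPKM (left) and as deposited normalised reads (right). Each point is 1 library and each bar the mean with its SD; the MK8617 libraries of Pfkl lie above the IRI libraries and those of Pfkm below.

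Levels of the 2 genes can be compared only per length. In the deposited FPKM (fragments scaled for exon length and library size) Pfkl had 28.9, 26.9 and 30.4 with MK8617, against 7.15, 7.82 and 7.95 with IRI alone. Pfkm had 4.91, 5.24 and 5.82 FPKM with MK8617, against 10.2, 8.73 and 8.75 with IRI alone. From high to low, the order of the FPKM means was Pfkl with MK8617 (28.7 ± 1.77), Pfkm with IRI (9.24 ± 0.871), Pfkl with IRI (7.64 ± 0.43) and Pfkm with MK8617 (5.32 ± 0.46). No neighbours in this order had overlapping libraries, but the middle pair was close, with the lowest Pfkm library at 8.73 and the highest Pfkl library at 7.95.

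The FPKM ratio of Pfkl to Pfkm was 5.89, 5.14 and 5.23 in the MK8617 libraries and 0.697, 0.895 and 0.909 in the IRI libraries. On the FPKM scale Pfkl was thus the more abundant transcript in 3 of 3 MK8617 libraries and Pfkm in 3 of 3 IRI libraries. The ratio averaged 5.42 ± 0.409 with MK8617 and 0.834 ± 0.118 with IRI alone, a difference of 2.71 ± 0.14 (SE) in log2 ratio, or 6.53-fold. The lowest ratio of the IRI group, in replicate 1, came with both the lowest Pfkl and the highest Pfkm value of that group.

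Which subunit led in the IRI libraries depended on the length used. The deposited FPKM divide by all exon bases of a gene, 6675 for Pfkl and 3340 for Pfkm, and the exons of Pfkl include retained-intron and other short transcripts. The annotated principal mRNA is 3730 bases long for Pfkl, and 2798, 2816 and 2879 bases for the 3 principal transcripts of Pfkm, of which the median was used. With these lengths, a choice made after the values were seen, the ratio was 8.88, 7.75 and 7.9 with MK8617 and 1.05, 1.35 and 1.37 with IRI alone. Pfkl was then above Pfkm in every library, by little in IRI replicate 1. The difference between the groups stayed at 2.71, since a length cancels within a gene.

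**Figure D2:**
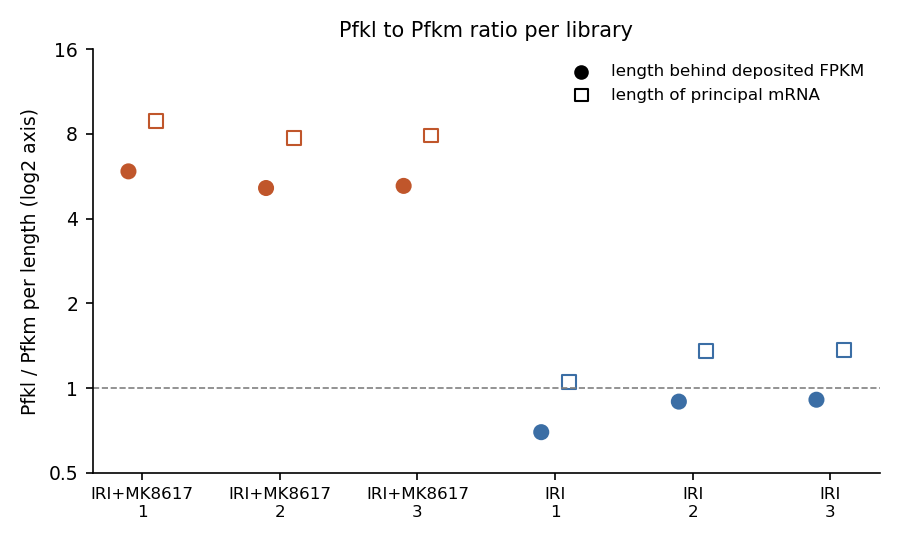
Ratio of Pfkl to Pfkm per length in each library on a log2 axis, with the exon lengths behind the deposited FPKM (filled circles) and with principal mRNA lengths (open squares). The dashed line marks equal levels: the IRI libraries lie below it by FPKM (0.697 to 0.909) and above it by mRNA length (1.05 to 1.37), while the MK8617 libraries lie above it on both.

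The summed FPKM of Pfkl and Pfkm was 33.8, 32.1 and 36.2 with MK8617 and 17.4, 16.6 and 16.7 with IRI alone. The means were 34 ± 2.06 with MK8617 and 16.9 ± 0.436 with IRI alone, so the sum was 2.01-fold higher with MK8617. Per principal mRNA length the sum was 2.35-fold higher. Pfkl was 21.1 FPKM higher with MK8617, and Pfkm differed by -3.92 FPKM. Pfkl made up 84.4% ± 0.964 of the sum with MK8617 and 45.3% ± 3.64 with IRI alone. Per principal mRNA length its share was 89.1% ± 0.7 with MK8617 and 55.5% ± 3.67 with IRI alone. These sums leave out Pfkp.

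Marker lists of several cell types moved with Pfkm or with Pfkl, in a table where 38.7% of all tested genes were called lower with MK8617, 35.7% higher and 74.3% in either direction. Of 5 smooth muscle markers 5 were in the table, and 5 fell with MK8617 (limma, adjusted p of 0.000749 to 0.0279), among them Acta2 (smooth muscle actin) and Des (desmin). Their summed level was 37.1 to 75.2 FPKM with MK8617 and 155 to 276 FPKM with IRI alone. Of 8 skeletal muscle markers only Acta1 was listed, at 0 to 0.0387 FPKM with MK8617 and 0.035 to 0.279 FPKM with IRI alone, close to 0 in every library. Thick ascending limb markers went both ways, with 1 of 5 listed members higher and 3 lower, and a summed level of 634 to 1051 FPKM with MK8617 and 511 to 826 FPKM with IRI alone. Intercalated cell markers fell in 3 of 4 listed members, from a list of 6, with a sum of 31 to 41.7 FPKM with MK8617 and 66.6 to 82.5 FPKM with IRI alone. Macrophage markers fell in 6 of 7 listed members of 10, with a sum of 37.4 to 49.7 FPKM with MK8617 and 100 to 198 FPKM with IRI alone. Proliferation markers fell in 7 of 8, with a sum of 37.7 to 39.8 FPKM with MK8617 and 66.5 to 147 FPKM with IRI alone. IRI replicate 2 was the highest there, for example in Mki67, with 761.5 normalised reads against 74.8 and 116.9 in the other IRI libraries. Pcna, the member not past the threshold, made up most of that sum, with means of 33 FPKM with MK8617 and 57.1 FPKM with IRI alone. Among fibroblast markers, with 3 of 6 listed, Col1a1 (-2.17) and Col3a1 (-2.08) fell while 1 rose, with a sum of 23.6 to 27 FPKM with MK8617 and 56.4 to 132 FPKM with IRI alone. Neutrophil markers fell in 2 of 2 listed members of 5, with a sum of 18.1 to 44.3 FPKM with MK8617 and 50.8 to 79.1 FPKM with IRI alone. Of 2 tested principal cell markers, from a list of 7, 1 fell. Proximal tubule markers moved with Pfkl, with 3 of 4 listed members of 13 higher and 0 lower. Their sum was 500 to 585 FPKM with MK8617 and 150 to 287 FPKM with IRI alone. IRI replicate 3 was the lowest there, for example in Miox, with 2872 normalised reads against 6019.5 and 5852.2 in the other IRI libraries. Distal convoluted tubule markers rose in 2 of 3 listed members of 5 (Trpm6 at 1.55 and Pvalb at 2.65), with a sum of 24.6 to 47.6 FPKM with MK8617 and 17.5 to 23.8 FPKM with IRI alone. Podocyte markers rose in 2 of 2 listed members of 6, with a sum of 9.34 to 10.2 FPKM with MK8617 and 5.73 to 6.86 FPKM with IRI alone. Endothelial markers rose in 1 of 2 listed members of 7. The part of these cell types in the values of Pfkl and Pfkm was not tested. Umod, the defining gene of the thick ascending limb, had 29584.4, 48959.9 and 50299.2 normalised reads with MK8617 and 35706.4, 21673.5 and 36518.8 with IRI alone, so the tissue carried the mark of kidney in every library.

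Of 84 genes in 8 lists of glucose metabolism around the phosphofructokinase step 54 were in the table and tested, and 28 rose and 15 fell with MK8617 (limma, adjusted p under 0.05, as for every gene said to rise or fall). These are 51.9% and 27.8% of the tested members, beside the 35.7% and 38.7% of all tested genes. The median log2 fold change was 0.63 for the 54 genes and -0.31 for all tested genes. With the HIF pathway list added, 34 of 61 genes rose and 15 fell. The table holds only genes with a p below 0.05 in the authors' comparison, so these shares describe listed genes.

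Among the enzymes that set fructose-2,6-bisphosphate, 3 of 5 were listed. Pfkfb3, which makes this activator of phosphofructokinase-1, had 801.2, 914.7 and 1388.7 normalised reads with MK8617 and 397.5, 333.4 and 399.7 with IRI alone. It rose by a log2 fold change of 1.42 ± 0.19 (limma adjusted p = 0.00118), with no overlap between the groups. Tigar, a phosphatase that removes the activator, had 148.6, 190 and 145.7 normalised reads with MK8617 and 240.4, 225.9 and 280.9 with IRI alone. It fell, with a log2 fold change of -0.63 ± 0.17 (limma adjusted p = 0.0269). That call was lost without MK8617 replicate 1 (-0.57) or 3 (-0.56) and without IRI replicate 1 (-0.65) or 3 (-0.54). Pfkfb1 was at -0.65 ± 0.25, not past the threshold (limma adjusted p = 0.0852); it passed when the adjustment covered tested genes only (limma adjusted p = 0.0315). Pfkfb2 and Pfkfb4 were not listed.

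Upstream of phosphofructokinase, 8 of 12 genes of glucose uptake and of the path to fructose-6-phosphate were listed, of which 3 rose and 2 fell. Slc2a1, the glucose transporter GLUT1, had 6272 ± 920 normalised reads with MK8617 and 2239 ± 599 with IRI alone, a log2 fold change of 1.51 ± 0.18. Gpi1, which supplies fructose-6-phosphate, rose by 0.66 ± 0.1, and Hk2, a hexokinase gene, by 0.77 ± 0.23. Of this list 2 members rose without MK8617 replicate 1 or 3, without IRI replicate 1 and on the FPKM scale. They were Slc2a1 and Gpi1, so the Hk2 call was lost in each of these runs. The sodium-glucose cotransporter gene Slc5a1 (-0.82 ± 0.14) and Slc2a4, the insulin-responsive transporter GLUT4 (-0.81 ± 0.21), fell. The Slc2a4 call was lost without MK8617 replicate 1 (-0.81), 2 (-0.84) or 3 (-0.78).

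Downstream, 10 of the 14 genes from aldolase to pyruvate were listed, of which 8 rose and 1 fell, with a median of 0.84. Without MK8617 replicate 2, 5 rose. Eno1, an enolase gene, rose by 1.06 ± 0.1 and had 41393 ± 1794 normalised reads with MK8617 and 19805 ± 1136 with IRI alone. Pgk1, a kinase that makes ATP, rose by 0.94 ± 0.11 and Pgam1, a phosphoglycerate mutase, by 0.74 ± 0.12. Eno1b rose by 2.57 ± 0.14, but it is a near copy of Eno1 and its reads are uncertain. Bpgm, the bisphosphoglycerate mutase that draws substrate away from this path, was the gene that fell (-0.58 ± 0.1). Gapdh, at 2.1 ± 0.73, missed the threshold (limma adjusted p = 0.0745), with 8567 normalised reads in MK8617 replicate 2 against 1185.4 and 1215.4 in the other MK8617 libraries. With IRI alone Gapdh averaged 7.32 FPKM, beside 241 for Pgk1 and 207 for Eno1, but also 13.9 for Bpgm and 8.54 for Eno1b. Why Gapdh was this low was not tested.

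Lactate and pyruvate genes rose in 8 of 12 listed members of 14 and fell in 2. Slc16a3, the lactate exporter MCT4, had 607 ± 112 normalised reads with MK8617 and 92.9 ± 15.8 with IRI alone. Ldha, which makes lactate, had 29303 ± 618 with MK8617 and 13292 ± 934 with IRI alone. The pyruvate dehydrogenase kinase genes Pdk4 and Pdk1, whose products restrain entry of pyruvate into the citrate cycle, rose by 3.02 ± 0.28 and 1.05 ± 0.11. Slc16a7 (-0.7 ± 0.14), a monocarboxylate transporter, and Mpc2 (-0.42 ± 0.13), a subunit of the mitochondrial pyruvate carrier, fell. The Mpc2 call was lost without MK8617 replicate 2 (-0.42) or 3 (-0.33), without IRI replicate 1 (-0.4) or 2 (-0.35), and with TMM factors or edgeR (-0.36 in both).

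Genes of the reverse path, gluconeogenesis, also went both ways, with 4 of 6 listed members of 8 higher and 2 lower. Fbp1, whose enzyme undoes the phosphofructokinase reaction in liver and kidney, had 6989.4, 6163.5 and 6849 normalised reads with MK8617 and 3651.5, 4277.3 and 1475.3 with IRI alone. It rose by 1.23 ± 0.33 (limma adjusted p = 0.0242), a call lost without any 1 MK8617 replicate (1.19 to 1.28) and on the FPKM scale (1.21). Without IRI replicate 3 its log2 fold change was 0.75, and the call held. Fbp2, the muscle-type isoenzyme, had 571.7, 670.2 and 460.4 normalised reads with MK8617 and 1085.6, 1157.7 and 1250 with IRI alone, and fell (-1.05 ± 0.14, limma adjusted p = 0.00117), with -0.64 once the length trend was removed. At both opposing steps the muscle-type gene was thus lower with MK8617 than with IRI alone, but Pfkm was chosen for its direction. The same did not hold for every muscle-type gene: Eno3, the muscle enolase gene, rose by 0.7 ± 0.18 (limma adjusted p = 0.0205). Pcx, which carboxylates pyruvate, rose by 1.7 ± 0.24, and Pck2, a mitochondrial carboxykinase, fell (-0.54 ± 0.12). When any 1 MK8617 library was left out, 1 member of this list rose, and on the FPKM scale 2 did. IRI replicate 3 lay below the other two IRI libraries in each of the 4 genes that rose: Pck1 had 2064.8 normalised reads there against 15840.1 and 17966.4, Pcx 1519.4 against 3101.6 and 2973, and Slc37a4, a glucose-6-phosphate transporter gene, 625 against 1215.3 and 1443.7.

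**Figure D3:**
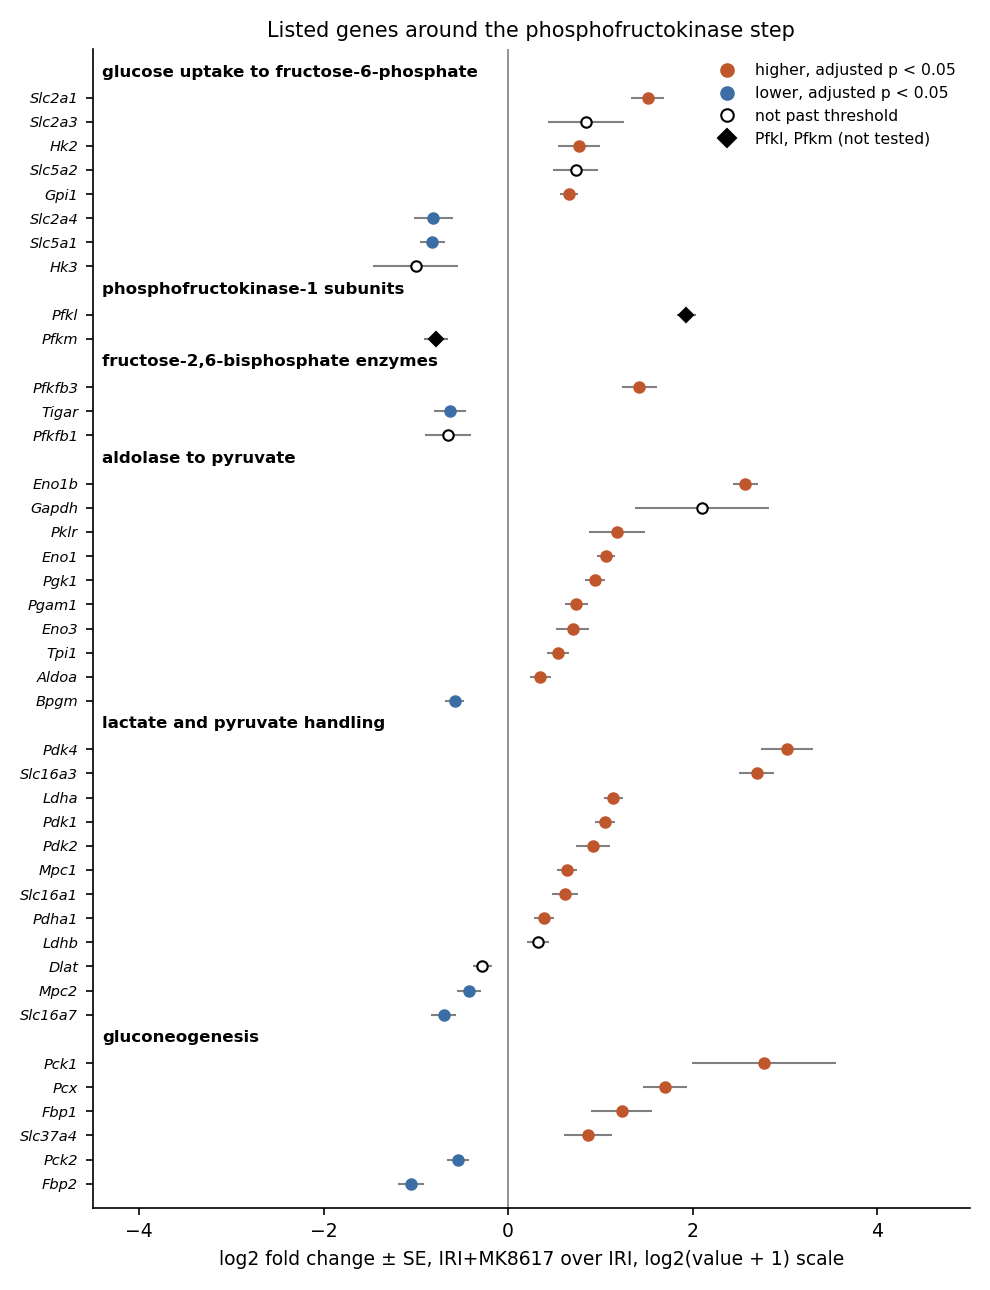
Log2 fold changes of listed genes around the phosphofructokinase step, MK8617 over IRI, with SE bars. Filled circles passed an adjusted p of 0.05 (orange higher, blue lower), open circles did not, and black diamonds are Pfkl (1.93) and Pfkm (-0.78), which were not tested.

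On the side paths, glycogen genes were listed in 8 of 18 cases, with 3 higher and 3 lower. Gys1, the glycogen synthase of muscle and most tissues, rose by 1.3 ± 0.13 and Ugp2, which makes UDP-glucose, by 0.79 ± 0.12. The glycogen phosphorylase genes Pygb (-0.84 ± 0.14) and Pygl (-0.9 ± 0.18) fell, and so did glycogenin, Gyg (-0.5 ± 0.1, or -0.33 with the length trend removed). Of 5 listed pentose phosphate genes of 8, Tkt (-0.51 ± 0.09), Taldo1 (-0.56 ± 0.14) and Rpe (-0.5 ± 0.13) fell and H6pd rose by 0.81 ± 0.13. Without MK8617 replicate 1 or 3, or with the length trend removed, 1 member of that list fell: Taldo1 was at -0.55, -0.53 and -0.37 there and Rpe at -0.44, -0.5 and -0.4. Rpe was also lost without IRI replicate 1 (-0.48) or 2 (-0.43). Among 2 listed fructose genes of 5, Akr1b3, an aldose reductase, fell (-0.49 ± 0.09), and Slc2a5, the fructose transporter, was at -0.98 ± 0.44 (limma adjusted p = 0.146). Slc2a5 was past the threshold without IRI replicate 3 (-1.5) and with DESeq2 (-1.08). In the HIF pathway itself 6 of 7 listed genes rose, with Egln3, a HIF-induced prolyl hydroxylase, at 2.24 ± 0.21, Egln1 at 0.87 ± 0.09, Hif1a at 0.74 ± 0.13 and Arnt2 at 0.47 ± 0.1. Arnt2 was lost with the length trend removed (0.25), where 4 members of the HIF list rose. Without MK8617 replicate 1, 4 rose as well, and without MK8617 replicate 3 or IRI replicate 1 or 2, 5 rose.

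Other pairs of isoenzymes or transporters in these lists were set beside Pfkl and Pfkm, with pairs chosen after their values were seen, so no test was made. The difference in log2 FPKM ratio, MK8617 minus IRI, ranged from -0.06 ± 0.11 (SE) for Pygl over Pygb to 3.31 ± 0.94 for Pck1 over Pck2, and 2.71 ± 0.14 for Pfkl over Pfkm was second of 12. Without IRI replicate 3, in which the Pck1 over Pck2 ratio was 7.96 against 51.9 and 59 in the other IRI libraries, that pair was at 2.38 and Pfkl over Pfkm, at 2.78, was first. Pfkl and Pfkm were chosen for opposite differences, which favours a high place, so nothing is read from their rank. Fbp1 over Fbp2 had ratios of 10.6, 7.94 and 12.8 with MK8617 and 2.9, 3.19 and 1.02 with IRI alone. Slc2a1 over Slc2a4 had 41.2, 36.9 and 52.9 with MK8617 and 7.98, 9.5 and 8.49 with IRI alone. Ldha over Ldhb had 0.862, 0.862 and 0.907 with MK8617 and 0.466, 0.488 and 0.533 with IRI alone. In each of these 3 pairs every MK8617 library lay above every IRI library, as for Pfkl over Pfkm and most of the other pairs. Nothing is read from this, since the groups did not overlap in 92.5% of all tested genes.

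**Figure D4:**
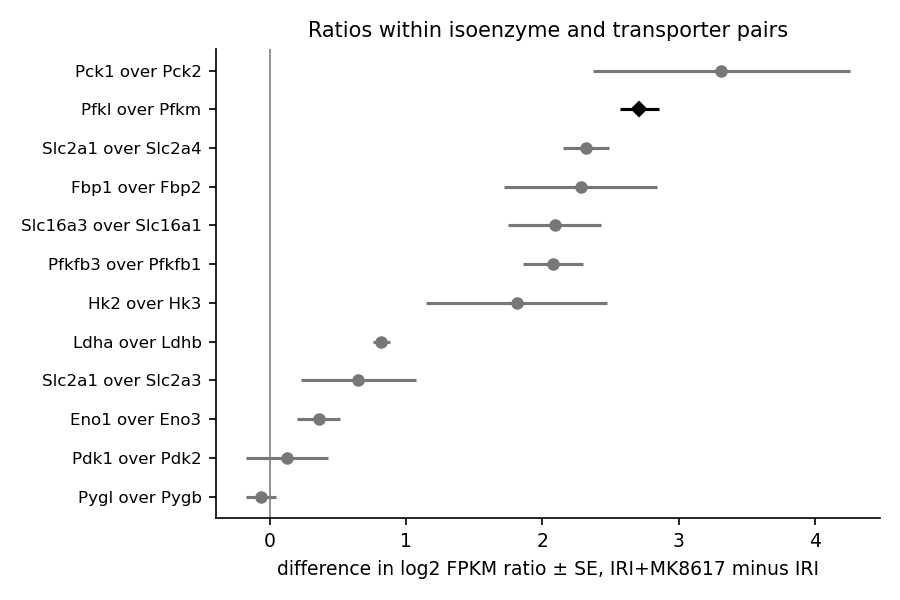
Difference in log2 FPKM ratio between MK8617 and IRI libraries for 12 pairs of related genes, with SE bars (n = 3 per group). The diamond is Pfkl over Pfkm at 2.71, and the widest bar belongs to Pck1 over Pck2.

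The genes with profiles most like those of Pfkl and Pfkm were sought by the distance between log2 profiles, each centred on its own mean, over the 6 libraries and 6109 candidate genes. Closest to Pfkl were Igfbp3, a binding protein of insulin-like growth factors (distance 0.278), Cyp2j9, a cytochrome P450 gene (0.297), and Cd14, a lipopolysaccharide co-receptor (0.304). Cd14, also used as a macrophage marker, rose (1.77), but it was outside the macrophage list above, in which no listed member rose. Igfbp3 had 11838.5, 10584.1 and 10092.2 normalised reads with MK8617 and 2373.7, 2669.7 and 2728.2 with IRI alone. Closest to Pfkm were Tspyl3 (0.14), Npnt, which encodes the matrix protein nephronectin (0.147), and Clstn1, a calsyntenin gene (0.155). Npnt had 1149.5, 1224.2 and 1265.4 normalised reads with MK8617 and 2506.2, 1915.5 and 1980.5 with IRI alone, with the highest library in IRI replicate 1 as for Pfkm. Tspyl3 had at most 38.8 normalised reads in any library and was past the threshold on the FPKM scale (-0.75) but not on the main one (-0.86). Pearson's r with the matched gene was 0.988 to 0.999 for these 6 genes. It is set mainly by the difference between the groups, which all listed genes were selected for, and it is given as a description.

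**Figure D5:**
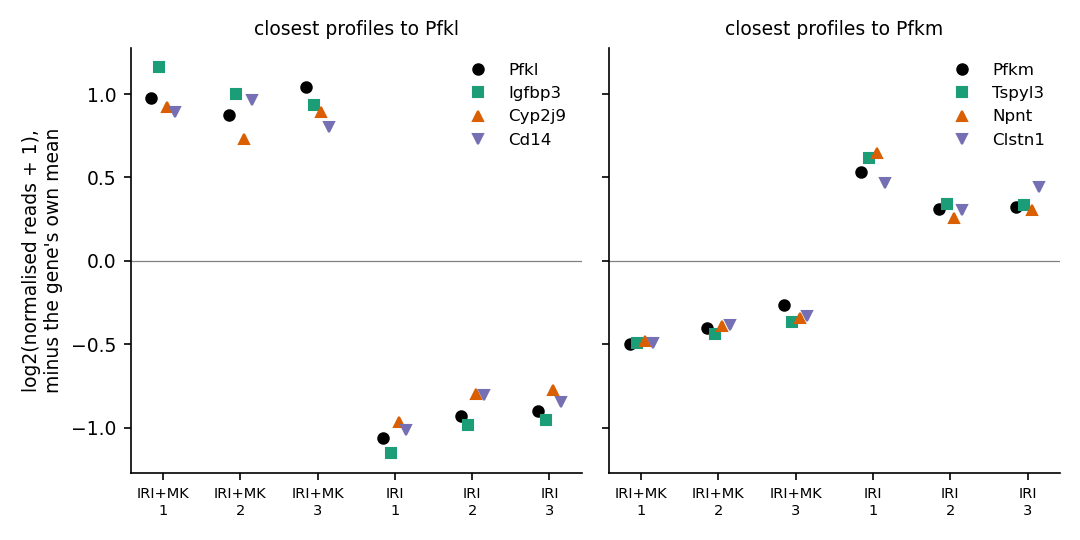
Centred log2(normalised reads + 1) of Pfkl (left) and Pfkm (right) with the 3 genes whose profiles lie closest, in each library. Black circles are the named gene, and the other symbols lie near them. The order of the libraries within a group differs between some of the genes.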

How the data were processed

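RNA was sequenced from 6 mouse kidney samples, 3 per group, grouped by their titles. The submitters' processing notes list HISAT2 (2.0.5) and featureCounts (1.5.0-p3), besides fastp, CASAVA (1.8) and DESeq2 (1.20.0), with no order or role. The notes name a human build, GRCh38 (hg38), while the identifiers are mouse genes, and 7338 of 7340 matched GENCODE M21 (GRCm38). The deposited signal values are the authors' gene counts divided by 1 size factor per library. Every value was a whole multiple of 1 read (100% within 0.001), and the recovered reads equalled the deposited raw count, given for IRI replicate 3 alone, in 7340 of 7340 genes. The same deposited table gives FPKM and, for the authors' comparison, a log2 fold change and a p-value, raw and adjusted. Its 13 unnamed empty columns were not used. Counted reads per library were 16835541 to 17577794 with MK8617 and 18620621 to 19508497 with IRI alone, derived from FPKM, exon length and reads.

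Genes were filtered with filterByExpr (edgeR 4.0.16), which kept 6961. The main test was limma 3.58.1 (trend, robust, R 4.3.3) on log2(value + 1), which understates changes of low genes. Benjamini-Hochberg adjustment ran over the 18811 genes that the authors' adjustment covered, at a threshold of 0.05. All genes in the fit were listed for a p below 0.05 in this same contrast of the same libraries. The spread that limma shares across genes was learned from this selected set, which the wider adjustment does not undo. Adjusted p-values of single genes could thus be too small. The limma fit was tested on simulated data, with the adjustment over the kept genes only and far fewer changed genes than were called here. Alternatives were other pseudocounts, filters, scalings and tests (edgeR and DESeq2 1.42.0 on recovered reads, the latter with the authors' size factors), a length trend removed, each library left out and a replicate block. Members and lists were chosen with earlier results of these data known. Named genes were all listed fructose-2,6-bisphosphate enzymes, the 4 smallest adjusted p per other list, members called against their list, and the 3 closest profiles (mean of at least 1 CPM). Hk2, Gapdh, Eno3, Pck1, Slc37a4, marker genes named singly and the pairs were named after their values were seen. 1 gene of the lists is not reported here and is left out of their counts. Promoter sequences are from RefSeq (GRCm38.p6).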

Additional observations from a re-analysis of the deposited data

How the results depend on the processing

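Pfkl kept its direction in every alternative run. Its log2 fold change was 1.73 with a trend on exon length removed and 1.88 to 1.97 with 1 library left out, beside 1.93. Pfkm was at -0.84 to -0.7 with 1 library left out, and the log2 difference of the ratio at 2.58 to 2.78. By principal mRNA length the mean log2 ratio of Pfkl to Pfkm was 3.03 with MK8617 and 0.32 in IRI, beside 2.44 with MK8617 and -0.27 in IRI by FPKM, so the order in IRI turned. With 1 library left out it stayed by FPKM at 2.37 to 2.47 with MK8617 and -0.34 to -0.15 in IRI. Lengths alone make this shift. The lower Pfkl value without the length trend comes from subtracting the trend, which was 0.2 at the 6675 exon bases of Pfkl. The trend was -0.07 at the 3340 exon bases of Pfkm, whose log2 fold change became -0.7. The ratio was not run with this trend removed, and both changes would make its difference between the groups smaller. What makes the trend was not tested. Removing that trend moved the median of all tested genes to -0.06, beside -0.31. The summed level differed by 1.23 on the log2 scale by mRNA length, beside 1.01. Pathway genes, the HIF list included, called higher numbered 24 to 34 and those called lower 10 to 16 with 1 library left out, beside 34 and 15. Over all tested genes, higher calls then numbered 1488 (without MK8617 replicate 1) to 2446 and lower calls 1924 to 2698, beside 2482 and 2691, with 1 fewer library in each fit. With TMM factors higher calls outnumbered lower ones, 2939 to 2343, and with edgeR 2875 to 2333. In 772 further comparisons over 43 named genes, 741 kept their call, 26 lost it and 5 gained it, and none turned direction. Many of these genes were picked for a small adjusted p in these same libraries, which favours a kept call. Hk2, Gapdh, Eno3, Pck1 and Slc37a4 were not among them, so the calls they lost are not counted here.

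Same-numbered libraries correlated at 0.02 to 0.12 in their deviations, so the numbers were not taken as pairs, although 3 of 3 MK8617 libraries correlated best with their own number. With the replicate block Pfkl was at 1.93, Pfkm at -0.78 and the ratio at 2.71, and 32 pathway genes rose and 15 fell. The Pfkm value rests on 288 to 327 reads in the MK8617 libraries, and its exons share bases with other genes.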
